A study of Homo sapiens with 6 samples.

Results

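AGRN, MXRA8, VWA1, MMP23B and MEGF6 are 5 genes at the short-arm end of human chromosome 1 whose proteins are secreted into, anchored in or act on the extracellular matrix. They were chosen by name, were matched by symbol to Ensembl identifiers, and made up 5 of the 220 genes that could be compared across all libraries. Poly(A)-selected RNA was sequenced from wild-type U2OS cells, a human bone tumour line, in 6 libraries. Of these, 2 came from untreated cells (control), 2 from cells given 100 µM etoposide for 4 h and 2 from cells given 1.5 µg/ml adriamycin for 4 h. Both drugs poison topoisomerase II, and adriamycin also intercalates into DNA, so the design asks what each drug does to gene expression and where the responses differ.

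The extracellular matrix is the mesh of proteins and sugar chains that surrounds cells, and its sheet-like form next to cells is the basement membrane. Agrin, the product of AGRN, is a large heparan sulfate proteoglycan of basement membranes that binds laminins, integrins and dystroglycan. At the nerve-muscle synapse its neural splice form acts through the receptor LRP4 and the kinase MuSK to cluster acetylcholine receptors, whereas most other tissues make forms that lack this activity. MXRA8 is an adhesion protein of the cell surface with immunoglobulin domains and serves as an entry receptor for arthritis-causing alphaviruses. VWA1 is a small secreted protein with a von Willebrand factor A domain that sits in the pericellular matrix with perlecan and collagen VI. MMP23B is a membrane-anchored metalloproteinase, and MEGF6 is a secreted protein built from many EGF-like repeats whose role is less well known.

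By the GENCODE annotation of GRCh38, AGRN (ENSG00000188157) lies at chr1:1020120-1056118 on the plus strand and MXRA8 (ENSG00000162576) at chr1:1352689-1361777 on the minus strand. VWA1 (ENSG00000179403) lies at chr1:1434861-1442882 and MMP23B (ENSG00000189409) at chr1:1632163-1635263, both on the plus strand. MEGF6 (ENSG00000162591) is the longest of them, at chr1:3487951-3611508 on the minus strand. The canonical transcripts of all 5 were GC-rich, at 63.3% to 70.0% against a median of 59.5% over the 94 genes tested. MMP23B has a near-identical copy, MMP23A, which shares 79.0% of the windows of 150 bases, the read length, in its canonical transcript, so its counts are uncertain. The exons of AGRN overlap those of the uncharacterized gene ENSG00000242590 on the same strand by 402 bases, and those of MMP23B overlap CDK11B on the opposite strand by 39 bases.

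The RefSeq promoter windows (GRCh38.p14, 250 bases before to 50 bases after a start site) held entries for 4 of the 5 genes, and AGRN had none. The windows of MXRA8 and MEGF6 are shown because these were the entries of genes whose change could be tested, and they are printed on the gene's own strand with each GC box (GGGCGG, or CCGCCC on the other strand) in capitals. The MXRA8 window is chr1:1358498-1358797 and the MEGF6 window is chr1:3611459-3611758, both read from the minus strand.
MXRA8: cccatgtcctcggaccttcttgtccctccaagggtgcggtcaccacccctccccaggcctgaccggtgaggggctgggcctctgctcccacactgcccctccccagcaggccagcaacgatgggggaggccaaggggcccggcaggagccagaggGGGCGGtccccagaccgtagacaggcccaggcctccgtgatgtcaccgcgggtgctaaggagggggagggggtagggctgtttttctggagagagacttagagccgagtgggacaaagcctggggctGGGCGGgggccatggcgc
MEGF6: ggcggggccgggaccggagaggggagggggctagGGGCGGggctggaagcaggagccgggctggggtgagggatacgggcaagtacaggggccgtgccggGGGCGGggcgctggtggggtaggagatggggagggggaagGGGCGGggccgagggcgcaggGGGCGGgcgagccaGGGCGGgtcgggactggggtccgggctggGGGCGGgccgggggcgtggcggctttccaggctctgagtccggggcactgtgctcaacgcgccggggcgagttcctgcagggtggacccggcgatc
MEGF6 held 6 GC boxes and this MXRA8 window held 2, while another MXRA8 start site at chr1:1361750-1362049 held none. VWA1 held 1 and MMP23B held 2. A GC box occurred in 45.0% of all 35116 promoter windows, so its presence alone did not set these genes apart, and such a match is a description of letters and not a binding site.

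The control and adriamycin tables used here run from the start of chromosome 1 and stop after 220 to 292 genes, while the etoposide tables list 67140 genes. The rest of the control and adriamycin libraries was not analysed here. All comparisons between groups therefore rest on the 220 shared genes, which took 59357 to 92794 counts in a library, and every change is relative to the other genes of this chromosome end. Counts were scaled by the TMM method of edgeR over the 94 genes that passed its filter on low counts, and a gene was called at an adjusted p under 0.01. The study calls the RNA-seq libraries of a condition technical replicates, and explains this term as separately cultured and processed cells only for another analysis of control and adriamycin. The p-values therefore measure the spread between these libraries, which may be technical. That spread was estimated mostly from all 94 tested genes together (120 prior degrees of freedom) and little from the libraries of a single gene. In bulk RNA, fewer cells expressing a gene and less RNA per cell cannot be told apart.

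AGRN dominated this end of the chromosome in every library. It held 24.6% of the counts of the shared genes in control library 1 (95% Wilson interval 24.4 to 24.9) and 23.9% in control library 2 (23.6 to 24.3). With etoposide the shares were 21.1% (20.8 to 21.4) and 23.0% (22.7 to 23.4), and with adriamycin 28.6% (28.3 to 28.9) and 29.0% (28.6 to 29.3). These intervals cover counting error only. The 3 groups did not overlap, with adriamycin highest and etoposide lowest. A share amounts to scaling by library size alone, so it also depends on how the other genes moved. On that scale the log2 fold changes of AGRN against control were 0.24 with adriamycin and -0.14 with etoposide, and neither was called.

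**Figure D1:**
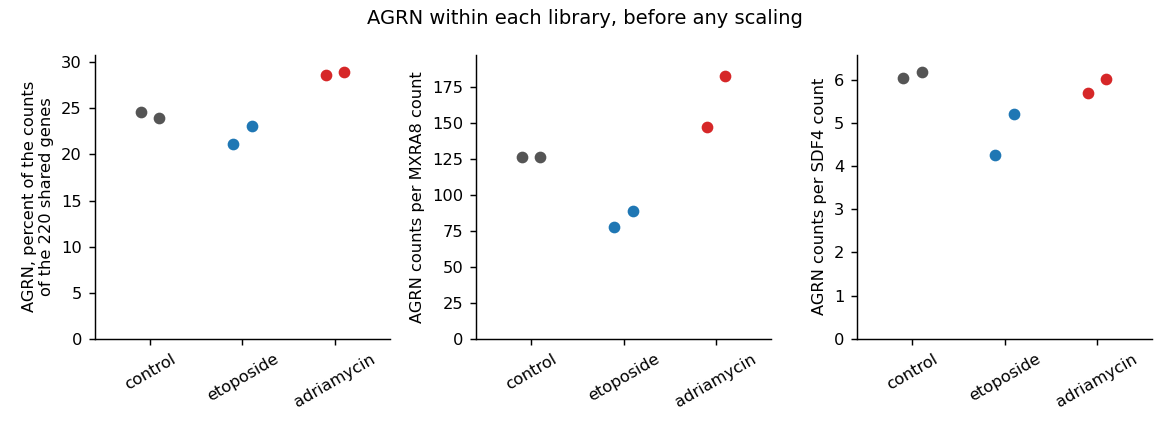
AGRN relative to other genes of the same library, without TMM factors, 1 point per library, with the axes starting at 0: its share of the counts of the 220 shared genes in percent (left), its counts per MXRA8 count (middle) and its counts per SDF4 count (right). The share ran from 21.1% with etoposide to 29.0% with adriamycin, and the 2 etoposide libraries lay below the control libraries in all 3 panels.

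Ratios between genes within a library, chosen after the counts were seen, gave the same order for AGRN against MXRA8. There were 127 and 126 AGRN counts per MXRA8 count in the control libraries, 77.7 and 88.9 with etoposide, and 147 and 183 with adriamycin. The 3 groups were again apart. Against MEGF6 the ratios were 393 and 567 in control, 350 and 428 with etoposide and 786 and 1012 with adriamycin, so that only adriamycin stood clear of the other groups. A ratio within a library shows that 2 genes changed unequally and not which of them changed. With 2 libraries against 2, an exact permutation test of such a single value cannot go below p = 0.333 (two-sided), and none was run.

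Expressed per kilobase of exon after scaling, AGRN was also the most abundant of the 5 by a wide margin. In control cells AGRN stood at 1645 ± 18.9 normalized counts per kilobase (SD, n = 2), MXRA8 at 38.6 ± 0.424, MEGF6 at 4.23 ± 1.13, MMP23B at 0.995 ± 0.671 and VWA1 at 0.646 ± 0.688. AGRN and MXRA8 were apart from each other and from the remaining 3 in every group. MEGF6 lay above MMP23B in both control libraries, but the 2 genes overlapped with etoposide (4.03 ± 0.250 and 3.43 ± 0.797) and with adriamycin (3.05 ± 0.597 and 2.88 ± 1.30). MMP23B and VWA1 overlapped in control cells, whereas with etoposide and adriamycin VWA1 (0.927 ± 0.745 and 0.107 ± 0.151) was the lower in every library.

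**Figure D2:**
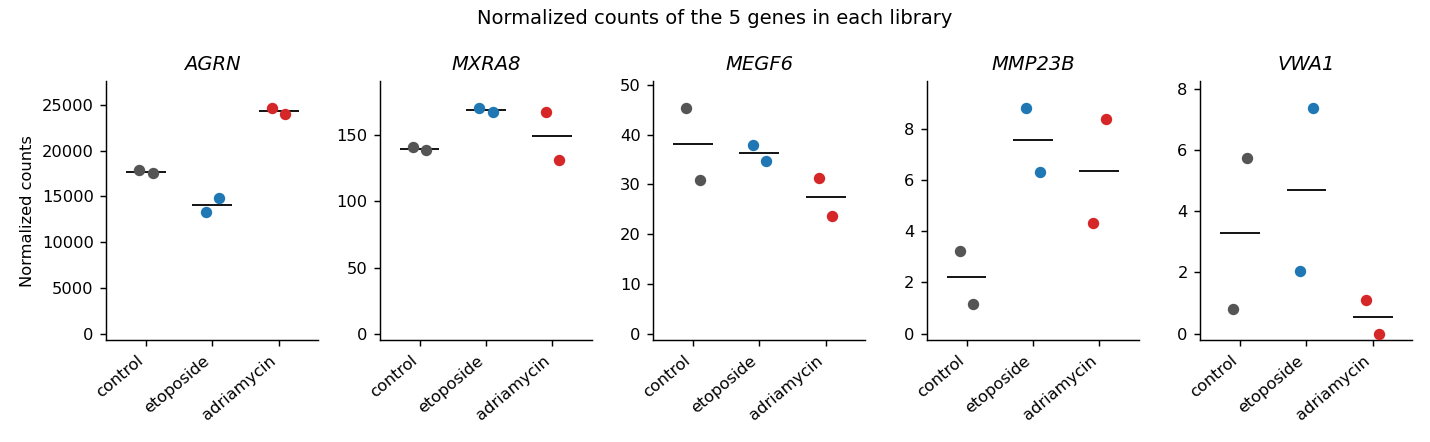
Normalized counts (linear axes from 0, a separate scale for each gene) of the 5 genes, 1 point per library and a bar at the mean of the 2 libraries of control, etoposide and adriamycin. AGRN is the gene whose 3 groups lie apart, from 13253 normalized counts in the lowest etoposide library to 24658 in the highest adriamycin library, while MMP23B and VWA1 stay under 10.

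AGRN rose with adriamycin and fell with etoposide, the latter being the less stable call. Its normalized counts were 17843 and 17555 in the control libraries, 13253 and 14866 with etoposide, and 24658 and 24029 with adriamycin. No group overlapped another. This was not particular to AGRN. The 3 groups of GNB1, INTS11, DVL1, MIB2, CDK11B, ATAD3B, ARHGEF16, TPRG1L and PANK4 were also apart. So were those of C1QTNF12 and B3GALT6, which likewise serve the matrix or the secretory route. CDK11B was called in none of the comparisons. How many of all tested genes had groups apart was not counted. Against control, AGRN rose by 0.46 on the log2 scale with adriamycin (95% confidence interval 0.28 to 0.64, a 1.38-fold level, edgeR adjusted p = 1.04e-05). AGRN was the 1 called gene of the 3 that could be tested, while 19.1% of all 94 tested genes were called higher, 19.1% lower and 38.3% in either direction in the same comparison. Only 17 of the tested genes had a larger log2 fold change than AGRN there. The call was lost without control library 2 (0.45, adjusted p = 0.0199) and with library size alone as the scale (0.24, adjusted p = 0.0174). The change was under 1 on the log2 scale, the size that the methods of the study also ask for and that 8.51% of the tested genes passed here.

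With etoposide AGRN fell by 0.33 on the log2 scale against control (95% confidence interval -0.51 to -0.15, a 0.794-fold level, edgeR adjusted p = 0.00212). It was again the 1 called gene of 3, where 17.0% of all tested genes were called lower, 5.32% higher and 22.3% in either direction, and 5.32% passed with a change over 1 as well. The direction held in all 18 alternatives, of which 2 only moved the threshold, but the call was lost in 12 of them, and adjusted p ran from 0.000392 to 0.340. Among these were the fits without control library 1 (-0.32, adjusted p = 0.0767), control library 2 (-0.35, 0.0600), adriamycin library 1 (-0.31, 0.0195) and etoposide library 1 (-0.26, 0.0785). TMM factors taken over all 174 genes with a count, instead of over the 94 tested, also ended it (-0.31, adjusted p = 0.0287).

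The most distinct contrast for AGRN was between the drugs. Its level with adriamycin was 1.73-fold that with etoposide, a log2 difference of 0.79 (95% confidence interval 0.61 to 0.97, edgeR adjusted p = 4.01e-13). Of the tested genes, 21.3% were called higher with adriamycin, 24.5% lower and 45.7% in either direction, and only 6 had a larger positive difference than AGRN. All 6 fits that left out a library kept this call, with differences of 0.74 to 0.92, as did every other scaling and test tried, down to 0.38 with library size alone (adjusted p = 0.000231). It stayed under 1 on the log2 scale, which 12.8% of the tested genes passed. The 3 comparisons share libraries and are not independent of one another.

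How much AGRN moved depended on what it was set against. Another scaling shifts all genes together: with library size alone as the scale, the median over the tested genes moved by 0.20 in the etoposide comparison, by -0.22 in the adriamycin comparison and by -0.41 in that between the drugs. Because that shift is nearly the same for every gene, the position of AGRN relative to the median tested gene hardly changed. This follows by construction and adds no support to the change. Under all 6 scalings, AGRN lay 0.35 to 0.36 below the median log2 fold change with etoposide, with 23 of the 94 genes below it. With adriamycin it lay 0.53 to 0.54 above the median against control, with 17 genes above it, and 0.86 to 0.87 above the median against etoposide.

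**Figure D3:**
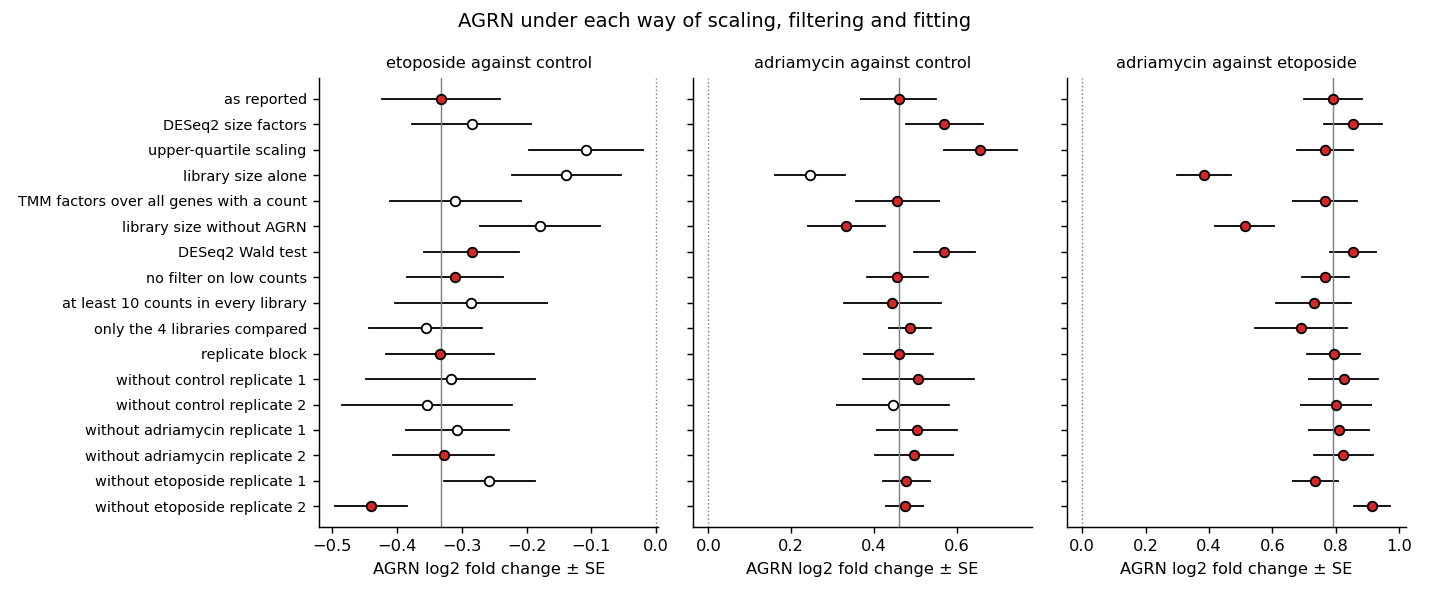
The log2 fold change of AGRN (horizontal axis, bars show ± 1 standard error) in 3 comparisons as reported and under 16 other scalings, filters, fits or sets of libraries (rows), where filled points passed an adjusted p under 0.01 and open points did not. For etoposide against control the points stay between -0.44 and -0.11 and many are open, while for adriamycin against etoposide all are filled.

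MXRA8 was near 150 normalized counts and no change in it was called. The control libraries had 141 and 139, the etoposide libraries 171 and 167, and the adriamycin libraries 168 and 131. Etoposide lay above control in both libraries without overlap, whereas the adriamycin pair spanned the control values. The log2 fold change was 0.27 with etoposide (95% confidence interval -0.08 to 0.63, edgeR adjusted p = 0.216) and 0.11 with adriamycin (-0.27 to 0.48, adjusted p = 0.669), both against control. Between the drugs it was -0.17 (-0.53 to 0.20, adjusted p = 0.451), and with library size alone this became -0.58 and passed the test (adjusted p = 0.00417). Its intervals leave room for changes of up to 0.63 in one direction and 0.53 in the other, so they do not show that this receptor gene kept its level.

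MEGF6 was thinly covered, with 17 to 56 counts in a library, and passed no test. Its normalized counts were 45.4 and 31.0 in control, 37.9 and 34.7 with etoposide, and 31.4 and 23.7 with adriamycin. Both etoposide libraries fell within the range of the control pair, and 1 of the adriamycin libraries did as well. The log2 fold change was -0.09 with etoposide (95% confidence interval -0.80 to 0.62, edgeR adjusted p = 0.849) and -0.48 with adriamycin (-1.26 to 0.31, adjusted p = 0.321) against control, and -0.39 between the drugs (-1.17 to 0.40, adjusted p = 0.431). A fall of 1 on the log2 scale with adriamycin lay within the interval. Over the 3 genes of the 5 that could be tested, the median log2 fold change was -0.09 with etoposide, 0.11 with adriamycin and -0.17 between the drugs, beside 0.03, -0.07 and -0.07 over all 94 tested genes.

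**Figure D4:**
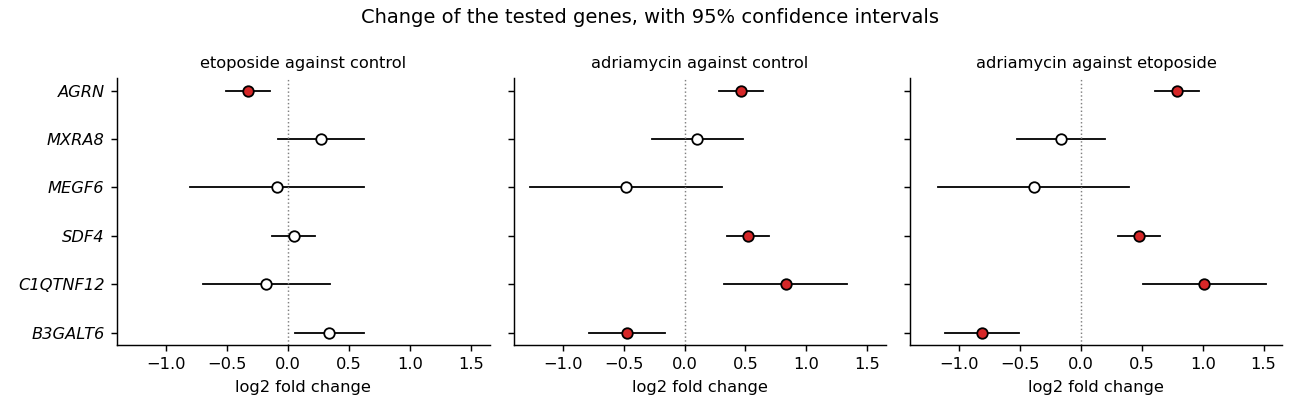
Log2 fold changes (points) with 95% confidence intervals (lines) of AGRN, MXRA8 and MEGF6 and of the other matrix or secreted-pathway genes SDF4, C1QTNF12 and B3GALT6 in the 3 comparisons, filled where the adjusted p was under 0.01. AGRN is filled in all 3 panels at -0.33, 0.46 and 0.79, and MXRA8 and MEGF6 are open in all.

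VWA1 and MMP23B did not pass the filter on low counts and were not among the genes tested. In control cells VWA1 had 1 and 5 counts, with etoposide 3 and 7, and with adriamycin 1 and 0. Once scaled, the 3 groups spanned 0.810 to 5.74, 2.03 to 7.36 and 0 to 1.08 normalized counts, so adriamycin overlapped control, and a count of 0 in adriamycin library 2 allows a share of up to 0.00505% of the shared counts. MMP23B had 4 and 1 counts in control, 13 and 6 with etoposide, and 4 and 6 with adriamycin. When no filter was applied, the log2 fold change of MMP23B was 1.68 ± 0.994 (SE) with etoposide against control (edgeR adjusted p = 0.277), and that of VWA1 with adriamycin was -2.08 ± 1.83 (adjusted p = 0.526). After scaling, both etoposide libraries of MMP23B (8.80 and 6.31) lay above both control libraries (3.24 and 1.15), but neither gene passed the test.

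Other genes of the same chromosome end also serve the matrix or the secretory route, and 3 of 4 could be tested. With adriamycin against control 2 of them rose and 1 fell, where 38.3% of all tested genes were called in either direction. With etoposide none was called, beside 22.3% of all tested genes. Between the drugs SDF4 (0.48) and C1QTNF12 (1.01) were called higher with adriamycin and B3GALT6 lower, beside 45.7% of all tested genes. Neither the SDF4 nor the C1QTNF12 call between the drugs held with library size alone as the scale. SDF4, a calcium-binding protein of the Golgi that helps sort secreted proteins, had 2954 and 2845 normalized counts in control, 3121 and 2855 with etoposide, and 4335 and 3988 with adriamycin. Both adriamycin libraries lay above all others. SDF4 rose by 0.52 with adriamycin against control (95% confidence interval 0.35 to 0.69, edgeR adjusted p = 2.21e-07), a call that held in all 16 other fits, and had a log2 fold change of 0.04 with etoposide (adjusted p = 0.769). There were 5.69 and 6.02 AGRN counts per SDF4 count with adriamycin against 6.04 and 6.17 in control, so within these libraries the share of AGRN did not grow against that of SDF4. With etoposide the ratios were 4.25 and 5.21.

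C1QTNF12, which encodes a secreted hormone-like protein related to complement C1q, had 71.3 and 73.4 normalized counts in control, 67.7 and 58.9 with etoposide, and 143 and 113 with adriamycin. The adriamycin libraries were again the highest. It rose by 0.83 against control (95% confidence interval 0.33 to 1.34, edgeR adjusted p = 0.00415), which 8 of 16 other fits called. B3GALT6, a galactosyltransferase that builds the linker on which the heparan sulfate chains of proteoglycans such as agrin start, went the other way, from 201 and 276 in control and 313 and 282 with etoposide to 180 and 159 with adriamycin. It fell by 0.81 with adriamycin against etoposide (95% confidence interval -1.12 to -0.51, edgeR adjusted p = 2.68e-06), and this call was lost without either etoposide library (adjusted p up to 0.0550). The fall of 0.47 against control (adjusted p = 0.00927) was called in only 4 of 16 other fits. MMEL1, a membrane metallopeptidase, had from 0 to 3 counts per library, too few for a test.

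The genes next to AGRN did not all follow it. ISG15, an interferon-induced ubiquitin-like modifier and the nearest tested gene before AGRN, rose with both drugs, by 0.48 with etoposide (edgeR adjusted p = 0.00244) and by 0.60 with adriamycin (adjusted p = 0.000133). On the other side of AGRN, ENSG00000273443 had log2 fold changes of -0.17 and -1.10 with no call in either. Next to MXRA8, DVL1, a relay of Wnt signalling, fell by 0.75 with etoposide (adjusted p = 1.86e-12) and stood at -0.18 with adriamycin with no call (adjusted p = 0.0798). MXRA8 itself stood at 0.27 and 0.11 with no call. Next to MMP23B, MIB2, a ubiquitin ligase of Notch signalling, rose by 1.10 with etoposide (adjusted p = 5.73e-13) and by 0.55 with adriamycin (adjusted p = 0.000239). On the other side of MMP23B, CDK11B had log2 fold changes of 0.06 and 0.28 with etoposide and adriamycin and no call in either. Next to MEGF6, TPRG1L rose by 0.56 with etoposide (adjusted p = 0.00202) and fell by 0.77 with adriamycin (adjusted p = 0.000133). Of the other neighbours, AURKAIP1, beyond MXRA8, rose by 0.34 with adriamycin (adjusted p = 0.00119), and ARHGEF16, on the other side of MEGF6, fell by 0.50 with it (adjusted p = 0.00878), with no call for etoposide in either. Around VWA1, the noncoding gene MRPL20-DT fell by 2.48 with adriamycin (adjusted p = 5.34e-07) and ATAD3B fell by 0.51 with etoposide (adjusted p = 1.78e-06), where the other drug gave no call.

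Across the 6 libraries, the tested genes whose log2 normalized counts were most like those of AGRN were INTS11, the endonuclease subunit of the Integrator complex (Pearson r = 0.994), and GNB1, a G protein beta subunit (r = 0.964). For MXRA8 they were SLC35E2B (r = 0.911) and CDK11A (r = 0.779), both of which have a near-identical copy nearby, and for MEGF6 CPTP, a ceramide-1-phosphate transfer protein (r = 0.837), and PANK4 (r = 0.835). These are descriptions over 6 libraries that share their scaling and fall into 3 groups, and they carry no test. GNB1 had log2 fold changes of -0.53 with etoposide and 0.45 with adriamycin against control, both called, and INTS11 had -0.19 and 0.27, of which the second was called (edgeR adjusted p = 0.00878).

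The etoposide libraries list all genes, and there the 5 genes could be placed in the transcriptome of the treated cells. Levels were expressed as TPM, that is counts divided by the exon length of each gene and scaled to a sum of 1000000 in each library. AGRN had 292 and 324 TPM, and MXRA8 had 11.2 and 10.8. MEGF6 had 0.996 and 0.902, MMP23B 0.946 and 0.671, and VWA1 0.0950 and 0.341. Ranked with the 17148 genes that reached 10 counts in each of the libraries, AGRN stood at the 97.6th and 98.0th percentile and MXRA8 near the middle, at 48.7 and 46.4. AGRN made up 0.0913% (95% Wilson interval 0.0900 to 0.0926) and 0.0992% (0.0976 to 0.101) of all counts of these 2 libraries. Whether it ranks the same in untreated or adriamycin-treated cells was not analysed here.

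**Figure D5:**
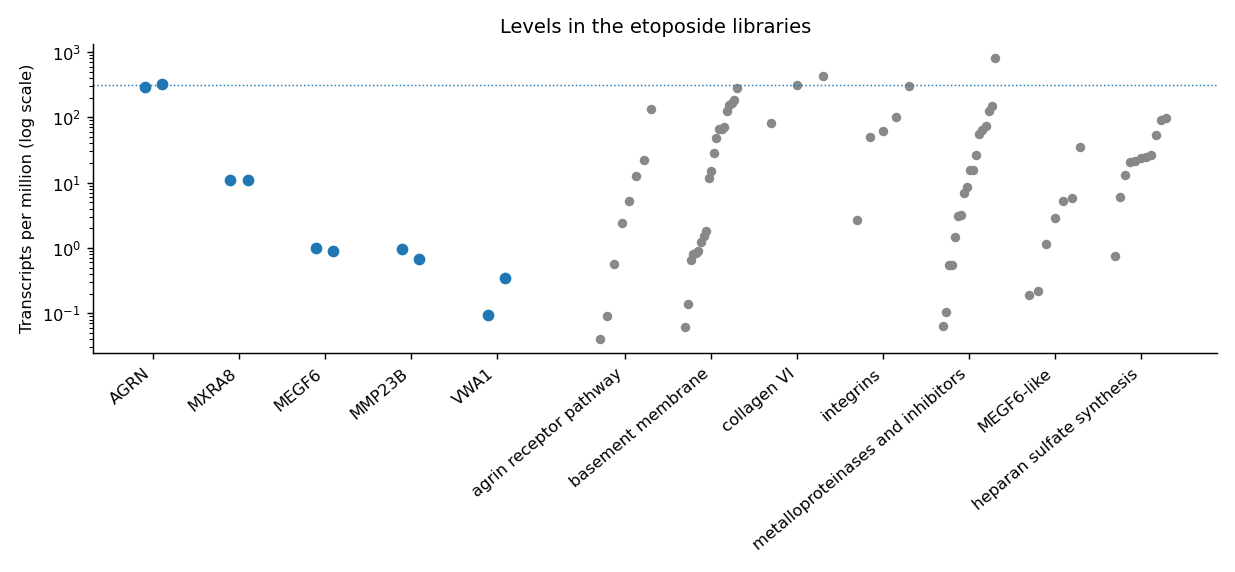
Levels in the 2 etoposide libraries in TPM (log axis), with 1 blue point per library for each of the 5 genes and 1 grey point per gene, at the mean of both libraries, for 7 lists of matrix-related genes. The dotted line marks the mean of AGRN, and 3 of the 73 listed genes lie above it.

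Of 73 genes in 7 matrix-related lists, 3 had a higher mean than AGRN, namely the collagen VI chains COL6A1 (419 and 447 TPM) and COL6A2 (315 and 321 TPM), and the metalloproteinase inhibitor TIMP1 (831 and 789 TPM). COL6A2 lay within the range of AGRN. The matrix genes COL1A1 and SPARC, which stand among the markers and not in these lists, also lay above it. The third chain, COL6A3, had 73.8 and 90.4 TPM. Of 21 basement membrane genes, 19 had at least 10 counts in both libraries, and among the highest were the collagen IV chain COL4A2 (179 and 190 TPM) and the laminin chain LAMC1 (150 and 181 TPM). COL4A3 and COL4A6 stayed under 10 counts in at least 1 library. Perlecan, encoded by HSPG2 and a known partner of the VWA1 protein, had 51.2 and 80.8 TPM.

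The partners of agrin were unequal. DAG1, which encodes dystroglycan, its receptor in many tissues, had 125 and 148 TPM, and LRP4, its receptor on muscle, had 19.3 and 25.3 TPM. CHRNB1, an acetylcholine receptor subunit, had 11.2 and 14.3 TPM, PRSS12, a protease that cleaves agrin, had 4.96 and 5.38 TPM, and RAPSN, the scaffold that holds receptor clusters, had 1.97 and 2.89 TPM. MUSK, the kinase of the pathway, had 3 and 1 counts, its adaptor DOK7 had 9 and 13 counts, and CHRNA1 had 1 and 3 counts. MUSK, DOK7 and CHRNA1 were thus the lowest of the 8 genes of the list, below the receptor subunit CHRNB1 and the scaffold RAPSN. Of the 5 integrin genes, ITGB1 was highest (296 and 304 TPM), and all 11 genes of heparan sulfate synthesis had at least 10 counts, led by NDST1 (90.5 and 108 TPM), B3GAT3 (89.5 and 91.0 TPM) and XYLT2 (52.2 and 56.2 TPM).

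MMP23B and MEGF6 stood below most of their listed relatives, but not below all. By mean TPM, MMP23B (0.808) lay above MMP1 (0.552), MMP10 (0.551), MMP11 (0.0635) and TIMP4 (0.103). MEGF6 (0.949) lay above SCUBE1 (0.221) and SCUBE2 (0.193). The place of MMP23B is uncertain, as most of its read-length windows are shared with MMP23A. Its libraries (0.946 and 0.671 TPM) also overlapped those of MMP1 (0.293 and 0.811) and MMP10 (0.821 and 0.280). Of 18 metalloproteinases and inhibitors, 14 had at least 10 counts in both libraries, with MMP2 at 145 and 154 TPM and TIMP2 at 118 and 128 TPM after TIMP1, and MMP1, MMP10, MMP11 and TIMP4 under 10 counts. Of the 7 genes like MEGF6, MEGF9 (5.14 and 6.42 TPM) and SCUBE3 (4.74 and 5.74 TPM) were among the highest, and SCUBE2 had 7 and 8 counts.

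The cells were labelled as epithelial cells from bone, and the markers were mixed in the etoposide libraries, where alone they could be read. Of 6 mesenchymal or osteoblast markers, 5 had at least 10 counts, with COL1A1 at 1323 and 1413 TPM, SPARC at 856 and 843 TPM and VIM at 568 and 534 TPM, but COL1A2 had 5 and 2 counts. Of 5 epithelial markers, 4 had at least 10 counts. KRT8 (469 and 433 TPM) and KRT18 (258 and 245 TPM) were high, and EPCAM was at 19.3 and 17.2 TPM. CDH1 was at 0.792 and 0.812 TPM and KRT19 at 1 and 0 counts. Of the blood cell markers, PTPRC had 6 and 6 counts and CD74 had 71 and 64, and of the endothelial markers, CDH5 had 4 and 6 counts and PECAM1 had 22 and 14. The part of other cell types in the results was not tested.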

How the data were processed

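The authors sequenced poly(A)-selected RNA as paired-end reads of 150 bases. The submitters' processing notes name GRCh38, HISAT2 2.1.0, Subread 2.0.0 with featureCounts and DESeq2 1.30.1. The deposited values are raw read counts per Ensembl gene. The strand and multi-mapping options are not given in the sources used here. Tables of 4 libraries stop after 220 to 292 genes with an incomplete last line, and the 220 genes complete in all 6 were compared.

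Of these, 174 had a count and 94 passed filterByExpr. They were tested in edgeR 4.0.16 (R 4.3.3) with TMM factors over the tested genes and the quasi-likelihood F test, in 1 fit of 6 libraries with group as the only term and Benjamini-Hochberg adjustment. The biological coefficient of variation was 7.51%, with 120 prior degrees of freedom. To obtain a normalized count, each count was divided by its library's effective size relative to the mean of the 6. Exon lengths came from GENCODE release 44. The steps were tested on simulated data, with changes planted in the etoposide group only. The planted changes were larger than those of AGRN, and AGRN was left unchanged. The simulation therefore does not bear on changes of the size reported for AGRN.

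Sums over the 220 genes are not library depths, and the etoposide libraries held 21450766 and 14244235 counts in all. Libraries of 1 group differed by more than counting noise (chi-square per degree of freedom 3.53 to 5.81).

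The 5 genes and the lists were chosen with earlier results of these data known. Also named are the other matrix or secreted genes there, the nearest tested neighbours, the 2 tested genes most alike, and in each list the 3 highest and any under 10 counts, with the whole agrin receptor list and collagen VI. Some genes that this rule would name are not reported here. Taking TMM factors over the tested genes was settled after the results of both versions had been seen. Alternatives covered scaling, test, filter, libraries in the fit, a replicate block and thresholds.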

Additional observations from a re-analysis of the deposited data

Results flagged for a closer look

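AGRN differed between the drugs in a direct test. Its log2 level with adriamycin exceeded that with etoposide by 0.79 (edgeR adjusted p = 4.01e-13), and both adriamycin libraries lay above both etoposide libraries. AGRN alone took 21.1% to 29.0% of the counts over which libraries were scaled. With the sum of the other genes as library size the difference was 0.51 (adjusted p = 1.52e-06).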

How the results depend on the processing

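Results were recomputed with other scalings, DESeq2, other filters, fewer libraries, a replicate block and other thresholds. Of these, TMM factors over all genes with a count were chosen after seeing the data, and they lowered the prior degrees of freedom from 120 to 12.7. Where a cause is not named, the cause was not tested. Comparisons in the control and adriamycin libraries are limited to genes of 1 chromosome end, and VWA1 and MMP23B are limited by depth. MMP23B is also limited by its near-identical copy MMP23A.

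For AGRN, the fall with etoposide kept its direction but missed the threshold with library size alone (-0.14), library size without AGRN (-0.18), upper-quartile scaling (-0.11), DESeq2 size factors (-0.28), TMM factors over all genes with a count (-0.31), at least 10 counts in every library (-0.29) and only the 4 libraries compared (-0.36). It ran from -0.44 to -0.26 with single libraries left out. The rise with adriamycin was 0.45 to 0.51 with single libraries left out and missed the threshold with library size alone (0.24). Between the drugs the range was 0.74 to 0.92. Asking for a change over 1 on the log2 scale ended all 3 calls of AGRN (-0.33, 0.46 and 0.79) by its construction.

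For MXRA8, the uncalled value with adriamycin turned to -0.11 with library size alone and to -0.025 with library size without AGRN, and ran from -0.031 (without adriamycin library 1) to 0.28 with single libraries left out. With etoposide it was 0.25 to 0.29. Between the drugs it ran from -0.32 to 0.0028 (without adriamycin library 2) and was called with library size alone (-0.58). For MEGF6, the uncalled value with etoposide turned to 0.13 with upper-quartile scaling, 0.10 with unadjusted library size and 0.059 with library size without AGRN, and ran from -0.33 to 0.24 with single libraries left out. Its ranges were -0.70 to -0.12 with adriamycin and -0.58 to -0.20 between the drugs.

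The labels do not say whether libraries with the same replicate number were handled together. Correlations of the deviations of same-numbered libraries were -0.07, 0.04 and -0.01 over 75 genes. With 2 libraries a group, these values cannot settle whether the libraries were paired. Library 1 had the larger sum over the shared genes in control (89343 and 63941), etoposide (92794 and 61317) and adriamycin (79753 and 59357). With replicate number as a block, AGRN stood at -0.33, 0.46 and 0.79 in the 3 comparisons, MXRA8 at 0.27, 0.10 and -0.17, and MEGF6 at -0.08, -0.47 and -0.39. The block changed no call of these genes, and 22, 34 and 43 genes were called in place of 21, 36 and 43.

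Counts over all tested genes moved more. For etoposide, 5 genes were higher and 16 lower as reported. The higher count was 17 with library size alone, library size without AGRN and upper-quartile scaling, where 11, 11 and 10 were lower. It was 3 with DESeq2 and with only the 4 libraries compared, 11 at an adjusted p under 0.05, and 2 with a change over 1, where 3 were lower. Single libraries left out gave 0 to 4 higher and 2 to 13 lower. For adriamycin, 18 were higher and 18 lower as reported. The higher count was 3 with library size alone, 11 with library size without AGRN, 8 with only the 4 libraries compared and 1 with a change over 1, and the lower count was 27, 24, 11 and 7 in the same order and 11 with DESeq2. Single libraries left out gave 5 to 15 higher and 10 to 12 lower. Between the drugs, 20 were higher and 23 lower as reported. The higher count was 4 with library size alone, 9 with library size without AGRN and 2 with a change over 1, with 33, 30 and 10 lower. Without etoposide library 1, 3 were higher and 5 lower, and single libraries left out gave up to 20 and 23.

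Levels per kilobase depend on the length taken. With the longest coding transcript, AGRN stood at 2367 in control, 1880 with etoposide and 3256 with adriamycin, MXRA8 at 51.3, 61.9 and 54.8, and MEGF6 at 4.88 with etoposide and 3.70 with adriamycin. MMP23B with etoposide came to 4.94, then above MEGF6. With library size alone, AGRN was at 1501 with etoposide and 1958 with adriamycin, and MXRA8 and MEGF6 at 53.6 and 4.63 with etoposide. The mean percentile in the etoposide libraries, over genes with at least 1 count in both, was 98.5 for AGRN, 65.2 for MXRA8, 8.44 for VWA1, 24.8 for MMP23B and 27.3 for MEGF6. With the longest coding transcript it was 96.9 for AGRN, 38.4 for MXRA8 and 4.86 for MEGF6.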
